A study of Homo sapiens with 6 samples.

Results

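A set of 10 genes named for converting or releasing steroids was followed in LNCaP, a human prostate cancer line that responds to androgens. They are the 5-alpha-reductase genes SRD5A1, SRD5A2 and SRD5A3, the 17-beta-hydroxysteroid dehydrogenase genes HSD17B2, HSD17B6, HSD17B8, HSD17B10, HSD17B11 and HSD17B14, and the steroid sulfatase gene STS. They were chosen by symbol, and all 10 were among the 23354 genes of the deposited count table. RNA was sequenced from 3 libraries of cells given dihydrotestosterone (DHT) at 1 nM and 3 libraries of cells given the same DHT plus white button mushroom (WBM) extract at 3 µL/mL, each for 48 h. All 6 libraries therefore came from cells with DHT and in medium with fetal bovine serum, and cells without DHT were not analysed here. A vehicle for the DHT cells is not mentioned in the labels. Nothing in them says that the 3 libraries of a group came from separate cultures, so the p-values cover library-to-library spread that may be technical. LNCaP is a single established line in culture.

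Androgens act through the androgen receptor, and a prostate cell sets its own exposure by converting steroids. 5-alpha-reductases turn testosterone into the more potent DHT, 17-beta-hydroxysteroid dehydrogenases interconvert active 17-hydroxy and weaker 17-keto steroids, and steroid sulfatase frees precursors such as dehydroepiandrosterone from their circulating sulfates. Several genes that carry these family names mainly do other work. SRD5A3 acts in the conversion of polyprenol to dolichol, the lipid carrier of N-linked glycosylation, and HSD17B10 and HSD17B8 encode mitochondrial enzymes.

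Libraries held 19127357 to 21490953 counts. Luminal prostate markers were present, with all 11 of the list detected and a summed level of 6921 to 7095 CPM (counts scaled to a common library size by TMM factors that align the libraries) in DHT and 4750 to 4864 CPM in DHT+WBM. The sum of 10 stromal, endothelial and immune markers was 36.4 to 40.6 CPM in DHT and 98.3 to 106 CPM in DHT+WBM. CD68, which also marks lysosomes, made up most of the latter at 84.5 CPM against 23.0 CPM in DHT, and LYZ, a myeloid gene, also rose, from 2.10 to 2.86 CPM. COL1A1 stood at 10.5 and 11.2 CPM and VWF at 2.83 and 2.16 CPM, neither past the test. The other 6 markers averaged under 0.2 CPM in both groups, with COL1A2 at no count in any library. The part of this difference in the results below was not tested.

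Promoter windows were available for 7 of the 10 genes in RefSeq (GRCh38.p14). Those of the called genes SRD5A1, SRD5A3 and STS are shown because SRD5A1 and SRD5A3 rose with the extract and STS fell. Each is the 250 bases before an annotated start, 5′ to 3′ on the gene's strand, with capitals marking 3 searched motifs on either strand: TGTTCT (an androgen response core), TGACNNNGC (an antioxidant response core bound by NRF2) and GCGTG (an aryl hydrocarbon receptor core). GCGTG reads CACGC on the other strand.
SRD5A1: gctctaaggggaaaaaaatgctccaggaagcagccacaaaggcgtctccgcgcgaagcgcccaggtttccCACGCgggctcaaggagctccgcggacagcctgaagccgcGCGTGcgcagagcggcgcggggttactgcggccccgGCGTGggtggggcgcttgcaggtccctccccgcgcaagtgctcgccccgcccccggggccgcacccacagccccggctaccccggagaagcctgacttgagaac
SRD5A3: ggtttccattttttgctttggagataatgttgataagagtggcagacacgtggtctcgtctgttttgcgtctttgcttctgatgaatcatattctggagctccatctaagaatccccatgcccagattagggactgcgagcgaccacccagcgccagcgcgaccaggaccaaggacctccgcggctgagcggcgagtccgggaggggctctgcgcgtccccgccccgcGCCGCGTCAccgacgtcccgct
STS: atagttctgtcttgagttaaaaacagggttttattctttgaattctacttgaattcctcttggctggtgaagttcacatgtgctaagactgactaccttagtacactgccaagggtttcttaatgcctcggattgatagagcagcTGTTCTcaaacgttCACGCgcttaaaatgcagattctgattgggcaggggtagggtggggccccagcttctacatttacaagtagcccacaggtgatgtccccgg

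The SRD5A1 window (chr5:6633190-6633439, plus strand) was 70.8% G and C and held GCGTG 3 times, starting 180, 140 and 104 bases before the start. The SRD5A3 window (chr4:55345992-55346241, plus strand) held TGACNNNGC once, as its reverse complement GCCGCGTCA, starting 22 bases before the start. STS has 5 annotated starts in the table, and the window shown is the outermost (chrX:7147040-7147289, plus strand), with TGTTCT 105 and CACGC 91 bases before the start. Of the other STS windows, 1 held TGTTCT on the opposite strand, and 1 held both TGACNNNGC (224 bases before the start) and a CACGC match. The SRD5A1 and SRD5A3 windows held no TGTTCT. The core GCGTG was also in the windows of HSD17B8, HSD17B10 and HSD17B11, which did not pass the test described below. No window was available for HSD17B2 or for HSD17B6 and HSD17B14, which also rose. Whether any of these motifs goes with a rise or fall was not tested. Of all 35116 RefSeq windows of 300 bases, which run to 50 bases after the start, 14.8% held TGTTCT, 13.3% held TGACNNNGC and 36.5% held GCGTG. A GC box, GGGCGG, was in 45% of all windows and in those of SRD5A1, SRD5A2, SRD5A3, HSD17B8 and HSD17B10 and 1 of the 5 of STS. A match is a description of these letters, and gene-level counts do not show which start was used.

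Of the 8 genes abundant enough to test, SRD5A1, SRD5A3, HSD17B6 and HSD17B14 rose with the extract and STS fell. HSD17B6 rose 1.93-fold and STS fell 1.48-fold, and the rises of HSD17B14, SRD5A3 and SRD5A1 were 1.42-fold, 1.29-fold and 1.21-fold. HSD17B8, HSD17B10 and HSD17B11 did not pass the test, and SRD5A2 and HSD17B2 had too few counts for it. The test was edgeR's quasi-likelihood test at a Benjamini-Hochberg adjusted p under 0.05 over 13466 genes, of which 58.2% were called, 29.2% higher and 29% lower. The 5 of 8 called here are near that background, and the count by itself sets these genes apart in no way. Their median log2 fold change was 0.18, against 0.003 over all tested genes. The libraries of the groups did not overlap in 6 of the 8, HSD17B11 included, against 62.2% of all tested genes (31.1% higher and 31.1% lower).

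**Figure D1:**
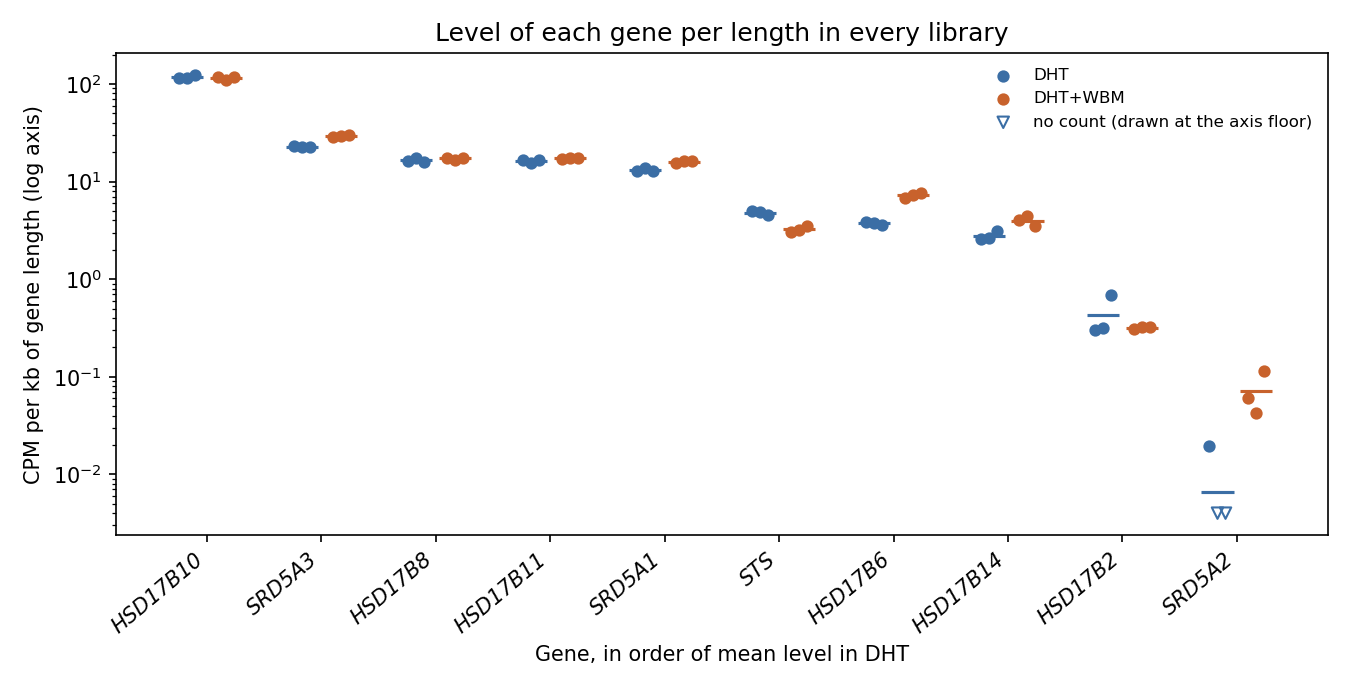
Level of each gene in every library, in TMM-scaled CPM per kilobase of gene length on a log axis (blue, DHT; orange, DHT+WBM; bars, group means; open triangles, libraries with no count). HSD17B10 stands highest in both groups, SRD5A2 lowest, and STS drops below HSD17B6 and HSD17B14 in DHT+WBM.

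Levels differed widely between the genes. Per kilobase of the gene length given in the table, HSD17B10 was the most abundant in DHT, at 118 ± 4.78 CPM per kb (SD, n = 3), followed by SRD5A3 at 22.7 ± 0.50. HSD17B8 at 16.5 ± 0.97 and HSD17B11 at 16.3 ± 0.54 CPM per kb came next, and the libraries of these neighbours overlapped. SRD5A1 followed at 13.2 ± 0.48, STS at 4.81 ± 0.21, HSD17B6 at 3.75 ± 0.12 and HSD17B14 at 2.79 ± 0.30 CPM per kb, with no overlap between neighbours in the order. HSD17B2 was at 0.43 ± 0.22 and SRD5A2 at 0.0065 ± 0.0113 CPM per kb. With the extract the order changed in its middle. STS, sixth in DHT, became eighth at 3.25 ± 0.20 CPM per kb, below HSD17B6 at 7.24 ± 0.39 and HSD17B14 at 3.97 ± 0.46. HSD17B8 and HSD17B11 exchanged places and again overlapped, at 17.3 ± 0.40 and 17.4 ± 0.17 CPM per kb.

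SRD5A1 encodes the 5-alpha-reductase that predominates in many prostate cancer lines. SRD5A1 (chromosome 5, 6633500 to 6669675, plus strand, hg19) measured 35.7, 38.0 and 35.8 CPM in the DHT libraries and 42.4, 44.8 and 45.1 CPM in the DHT+WBM libraries. Every DHT+WBM library was above every DHT library. The log2 fold change was 0.27 ± 0.05 (SE, edgeR adjusted p = 4.64e-05), and 39.8% of tested genes changed by more in either direction. The SRD5A1 start lies 26 bases from the annotated start of NSUN2, an RNA methyltransferase gene that is read on the opposite strand. The genes are thus transcribed away from each other. NSUN2, named after its values were seen, went the other way, from 209 to 186 CPM (log2 fold change -0.17, edgeR adjusted p = 0.000299). The other close neighbours of the 10 genes followed no single pattern. PLEKHA4, 419 bases from HSD17B14, rose as HSD17B14 did, by 0.88 on the log2 scale. RIBC1, 142 bases from HSD17B10, rose by 0.66, and SLC39A7, 199 bases from HSD17B8, fell by 0.13, while HSD17B10 and HSD17B8 did not pass.

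SRD5A3, the gene that acts in the conversion of polyprenol to dolichol, was the most abundant of the 3 reductases. SRD5A3 (chromosome 4, 56212388 to 56239266, plus strand) measured 94.9, 91.5 and 91.3 CPM in DHT and 118, 120 and 121 CPM in DHT+WBM. The groups did not overlap, and the spread within each was small beside the gap. Its log2 fold change was 0.37 ± 0.04 (edgeR adjusted p = 1.12e-09). The antisense gene SRD5A3-AS1 overlaps it over 9127 bases, but had between 0 and 6 counts per library, against 1818 to 2630 for SRD5A3.

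SRD5A2 encodes the reductase that predominates in normal prostate, and it was close to absent here. SRD5A2 (chromosome 2, 31749656 to 31806040, minus strand) had 1, 0 and 0 counts in the DHT libraries and 3, 2 and 6 in the DHT+WBM libraries. The libraries did not overlap, but all values rest on 12 counts in total, 1 in DHT and 11 in DHT+WBM. The ratio of these counts, scaled by library size, was 10.9, with an exact 95% interval of 1.59 to 470 that covers counting error only. In a fit without the low-count filter, over 18663 genes, SRD5A2 had an edgeR adjusted p of 0.025. Even with the extract, its level of 0.072 ± 0.037 CPM per kb was far under the 16.0 ± 0.53 CPM per kb of SRD5A1.

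The summed level of the 3 reductases per length went from 35.9 ± 0.50 to 45.4 ± 0.99 CPM per kb, and every DHT+WBM library lay above every DHT library. An exact two-sided permutation test over libraries gave p = 0.1, the smallest that 3 against 3 allows. SRD5A1 made up 35.7, 38.0 and 36.6% of that sum in DHT and 34.7, 35.5 and 35.4% in DHT+WBM. Its share was thus lower in each DHT+WBM library than in any DHT library, by 1.6 percentage points on average (exact two-sided permutation p = 0.1, the smallest possible, n = 3 per group). The gap between the nearest libraries of the groups was small beside the spread within DHT, and the difference ran from 0.97 points without DHT replicate 2 to 2.15 points without DHT replicate 1. Among the genes that supply and use dolichol, to whose synthesis SRD5A3 contributes, 3 of 5 fell and none rose. The median of the 5 log2 fold changes was -0.17, and 29% of all tested genes fell. DPAGT1, which starts the dolichol-linked sugar chain, had a log2 fold change of -0.35, DOLPP1, which recycles dolichol phosphate, -0.22, and NUS1, a subunit of the prenyl chain synthase, -0.17.

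**Figure D2:**
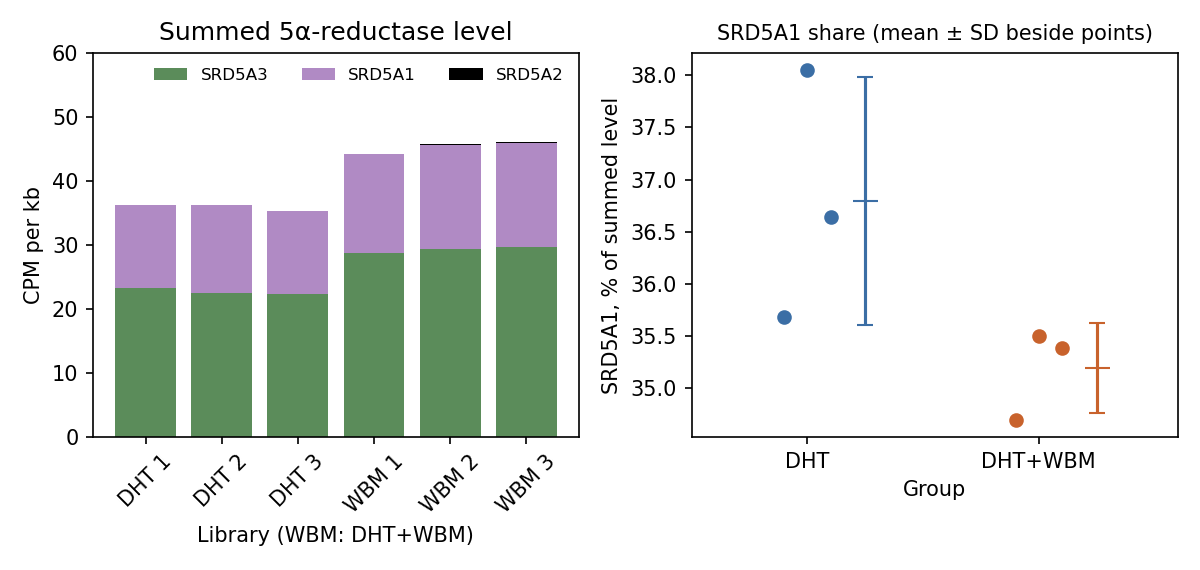
Left, stacked level of SRD5A3, SRD5A1 and SRD5A2 in each library in CPM per kb, where the 3 DHT+WBM bars stand above the 3 DHT bars. Right, SRD5A1 as a percentage of that sum in each library, with the group mean and SD beside the points; the axis does not start at 0, and the DHT+WBM points lie just under the DHT points.

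HSD17B6, whose enzyme oxidises 3-alpha-androstanediol back to DHT in the backdoor route to androgens, showed the largest rise of the 8 tested genes. HSD17B6 (chromosome 12, 57157108 to 57181574, plus strand) measured 5.82, 5.69 and 5.46 CPM in DHT and 10.3, 11 and 11.5 CPM in DHT+WBM. The lowest library with the extract was well above the highest without it. The log2 fold change was 0.95 ± 0.10 (edgeR adjusted p = 1.72e-10), and 6.32% of tested genes changed by more. Among 10736 genes with a mean of at least 5 CPM, the profiles nearest to HSD17B6 over the 6 libraries, by Euclidean distance of centred log2 CPM, were those of SLC48A1, WEE2-AS1 and IFNGR1, at distances of 0.07, 0.08 and 0.09. Such closeness mostly reflects a group difference of like size, since 7837 genes were called.

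A list of short-chain dehydrogenases and reductases of retinoids, steroids and prostaglandins, part of the enzyme class of HSD17B6, was set beside it. The list left out the genes named HSD17B, of which HSD17B14 and HSD17B12 also rose and none tested was called lower. Of 12 tested in the list, 8 fell and 1 rose, around a median of -0.20 on the log2 scale. Of all tested genes, 29% fell and 29.2% rose. RDH11, a retinal reductase gene abundant in prostate, went from 638 ± 17.7 to 445 ± 10.4 CPM (-0.52 on the log2 scale). HPGD, which inactivates prostaglandins, had a log2 fold change of -1.16, and SDR9C7 one of -1.34 from 1.24 ± 0.37 CPM. SDR9C7 and RDH16 lie downstream of HSD17B6 on chromosome 12, at 57316938 to 57328189 and 57345216 to 57351418. The 3 genes differed there, since HSD17B6 rose, SDR9C7 fell and RDH16 did not pass the test, at 0.20 on the log2 scale (edgeR adjusted p = 0.118). The 1 member that rose, DHRS3, was just past the threshold at 0.20 (edgeR adjusted p = 0.0471), and its call was lost in 8 of 14 alternative fits. Without DHT+WBM replicate 2, or with DESeq2, 5 of the list fell, and whether the list differs from other genes was not tested.

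HSD17B14 encodes a cytosolic dehydrogenase that acts on steroids and sugars in vitro. HSD17B14 (chromosome 19, 49316274 to 49339934, minus strand) measured 3.20, 3.22 and 3.85 CPM in DHT and 4.97, 5.39 and 4.28 CPM in DHT+WBM. The groups did not overlap, but DHT replicate 3 and DHT+WBM replicate 3 were close. The log2 fold change was 0.51 ± 0.14 (edgeR adjusted p = 0.002), from 64 to 105 counts per library. The whole HSD17B14 span lies inside that of SNAR-A3, which had no count in any library.

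HSD17B2, which oxidises testosterone and estradiol to their weaker keto forms, was rare. HSD17B2 (chromosome 16, 82068858 to 82132139, plus strand) had 9, 9 and 20 counts in DHT and 9, 9 and 10 in DHT+WBM. DHT replicate 3 alone stood high, and the other 5 libraries were alike. The ratio of counts scaled by library size was 0.73, with an exact 95% counting interval of 0.43 to 1.22. The fit without the low-count filter gave an edgeR adjusted p of 0.376, so a difference was not detectable at this depth.

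HSD17B11, an enzyme of lipid droplets that oxidises androstanediol to androsterone, was slightly higher in DHT+WBM without passing the test. HSD17B11 (chromosome 4, 88257691 to 88312455, minus strand) measured 30.8, 29.2 and 31.0 CPM in DHT and 32.2, 32.4 and 32.8 CPM in DHT+WBM. The groups did not overlap, yet the gap between their nearest libraries was smaller than the range within DHT. The log2 fold change of 0.10 had a 95% interval of -0.02 to 0.21 (edgeR adjusted p = 0.151). With library totals in place of TMM factors it passed, at 0.14 (edgeR adjusted p = 0.0332). Its neighbour and close relative HSD17B13, a liver lipid-droplet gene at 88224941 to 88244056, averaged 0.032 and 0.066 CPM. Of 9 tested lipid droplet genes, 3 fell and 1 rose, around a median of 0.06 on the log2 scale; the 3 that fell are near the 29% of all tested genes. The coat gene PLIN4 went from 1.74 ± 0.03 to 6.32 ± 0.67 CPM, while the droplet protein genes METTL7A and CIDEB had log2 fold changes of -0.32 and -0.83. Without DHT replicate 1, or with library totals alone, 3 of these genes rose.

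HSD17B10 and HSD17B8 encode mitochondrial proteins. HSD17B10 acts in isoleucine breakdown and is a subunit of mitochondrial RNase P, and HSD17B8 pairs with CBR4 in a reductase of mitochondrial fatty acid synthesis. HSD17B10 (chromosome X, 53458206 to 53461323, minus strand) measured 110, 111 and 119 CPM in DHT and 114, 106 and 113 CPM in DHT+WBM. The groups overlapped, and the log2 fold change of -0.03 had a 95% interval of -0.12 to 0.06 (edgeR adjusted p = 0.534). HSD17B8 (chromosome 6, 33172414 to 33174608, plus strand) measured 15.9, 17.4 and 15.5 CPM in DHT and 17.1, 16.6 and 17.4 CPM in DHT+WBM. These groups overlapped as well, with a log2 fold change of 0.07 and a 95% interval of -0.08 to 0.22 (edgeR adjusted p = 0.455). In a list of RNase P subunits and genes of mitochondrial fatty acid synthesis and branched-chain amino acid and fatty acid breakdown, 7 of 14 fell and 4 rose, beside 29% and 29.2% of all tested genes, and the median was -0.11 on the log2 scale. CBR4 rose by 0.34 on the log2 scale and KIAA0391, the nuclease subunit of RNase P, by 0.32, whereas DBT, of branched-chain keto acid breakdown, was at -0.48. The count lower depended on scaling and on 1 library, at 4 with upper-quartile factors, 3 with library totals and 4 without DHT+WBM replicate 2.

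STS was the tested gene that fell. STS (chromosome X, 7065293 to 7272682, plus strand) measured 35.1, 34.7 and 32.4 CPM in DHT and 21.8, 22.6 and 24.5 CPM in DHT+WBM. The highest library with the extract was well below the lowest without it. The log2 fold change was -0.57 ± 0.06 (edgeR adjusted p = 6.32e-10), and 16.1% of tested genes changed by more in either direction. In bulk RNA, fewer cells expressing a gene and less RNA per cell cannot be told apart. PUDP overlaps the first 939 bases of the STS span on the opposite strand and did not pass the test, at 12.2 and 13.5 CPM. The profiles nearest to STS were those of CLGN, NEMP1 and TMEM97, at distances of 0.07, 0.08 and 0.08 and with log2 fold changes of -0.58, -0.52 and -0.53.

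**Figure D3:**
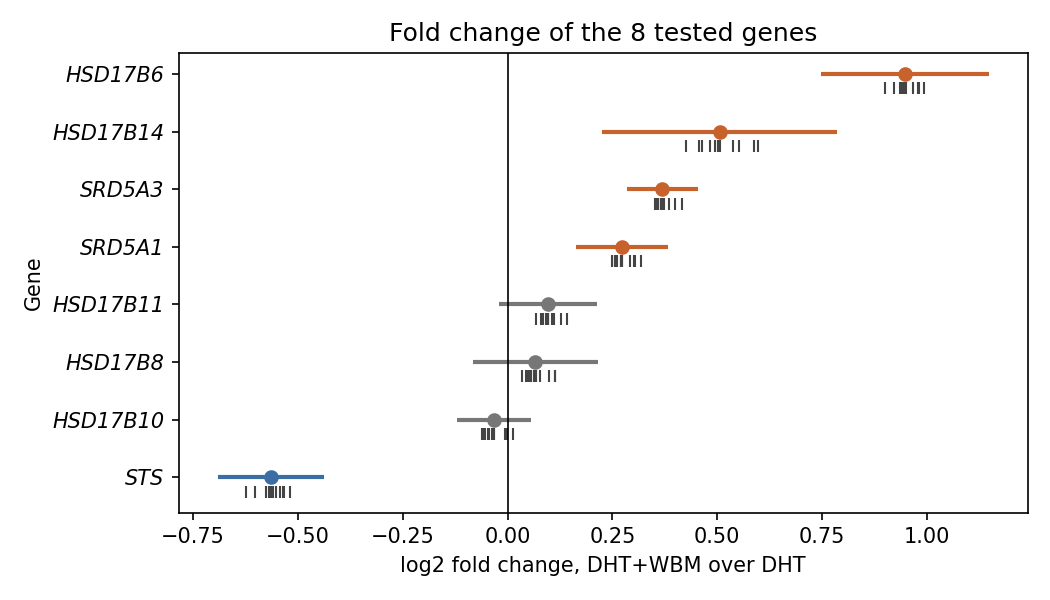
Log2 fold change of the 8 tested genes with 95% intervals (orange, higher; blue, lower; grey, did not pass). Small ticks under each point show the values with other scaling, filters or tests and with each library left out; the 5 called genes stay on their side of 0 throughout.

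Sulfatases need a formylglycine made by SUMF1 to be active. SUMF1 rose from 60.1 ± 1.20 to 71.6 ± 3.73 CPM and its paralogue SUMF2 from 212 ± 6.55 to 237 ± 9.20 CPM, the 2 genes that rose among 7 tested in the sulfation list, where none fell. That count is at the share of all tested genes that rose, 29.2%. SLC35B2, which carries the sulfate donor into the Golgi, did not pass, at a log2 fold change of 0.08. SULT2A1, the sulfotransferase that makes dehydroepiandrosterone sulfate, had no count in any library. Of 10 other sulfatases tested, 6 rose and 4 fell, with a median of 0.17 on the log2 scale, where 58.2% of all tested genes were called in either direction. The lysosomal IDS and ARSA had log2 fold changes of 0.47 and 0.45, and the extracellular SULF2 rose by 1.5 on the log2 scale from 1.18 ± 0.44 CPM. With upper-quartile factors, library totals or DESeq2, 2 of them were lower. Of the tested sulfatases on chromosome X besides STS, IDS rose as given above and ARSD, named after its values were seen, fell by 0.20 on the log2 scale.

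Among the 4 tested 17-beta-hydroxysteroid dehydrogenases of the same family that were not among the 10, HSD17B12, a fatty acid elongation enzyme gene, rose from 91.1 ± 2.85 to 100 ± 5.45 CPM (log2 fold change 0.14, edgeR adjusted p = 0.00758). HSD17B7 and HSD17B4 did not pass, at 0.12 and 0.01. The HSD17B12 call was lost without DHT+WBM replicate 2 or DHT+WBM replicate 3. Of 11 tested genes of steroid synthesis and interconversion, 8 rose and 1 fell, with a median of 0.22 on the log2 scale, beside 29.2% and 29% of all tested genes. CYP11A1, which makes pregnenolone from cholesterol, rose from 29.3 ± 1.14 to 51.7 ± 1.62 CPM. FDXR, a reductase in the electron supply of CYP11A1, had a log2 fold change of 0.61, and HSD3B7, of bile acid synthesis, one of 0.54. CYP17A1, needed to make androgens from pregnenolone, averaged 0.048 and 0.066 CPM. Fewer than 8 of the list were higher whenever a library was left out. The count was 5 without DHT+WBM replicate 1, 4 without DHT+WBM replicate 3 and 6 without any other library. It was also 6 with DESeq2 and without the low-count filter. AKR1C3, which reduces keto steroids at the same position as the HSD17B enzymes, went from 2.91 ± 0.51 to 37.8 ± 2.0 CPM, and UGT2B15, which conjugates DHT, from 37.4 ± 2.16 to 65.7 ± 3.99 CPM; both belong to families of near-identical genes whose reads can be credited to the wrong copy.

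**Figure D4:**
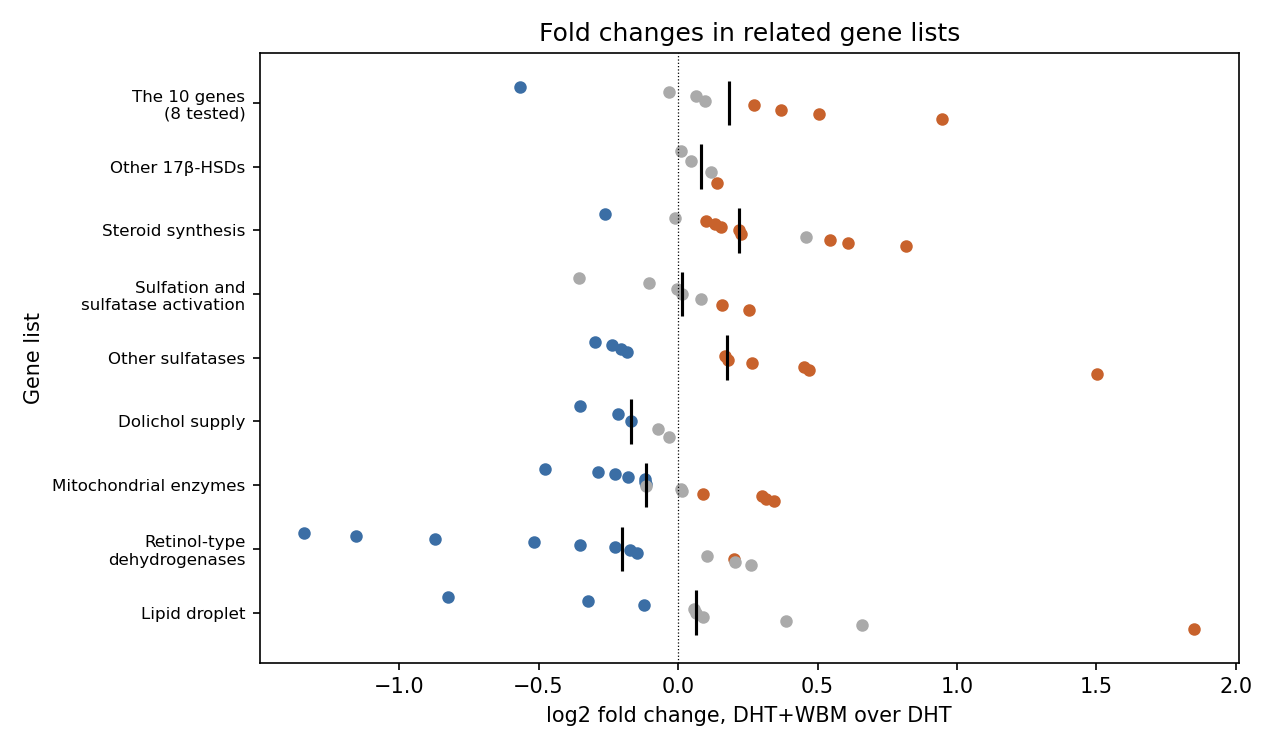
Log2 fold change of each tested gene in the lists around the 10 genes (orange, higher; blue, lower; grey, did not pass; black bar, list median). The medians are 0.22 for the steroid synthesis genes and -0.20 for the retinol-type dehydrogenases.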

How the data were processed

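The deposited table holds whole-number read counts, which the authors left unnormalised, and a length in kilobases per gene, per the file headers. Per the submitters' processing notes, the tools named are STAR 2.6.0, edgeR 3.28.1, bcl2fastq 2.18.0.12 and HTSeq 0.6.0 and the build is hg19. Annotation and strand setting: not given in the sources used here. Reads from overlapping genes on opposite strands may therefore be mixed. Groups came from the sample titles. The analysis used edgeR 4.0.16 (R 4.3.3): filterByExpr (minimum count 10, minimum total 15), TMM factors, and the two-sided quasi-likelihood F-test of DHT+WBM against DHT with Benjamini-Hochberg adjustment over all tested genes. Standard errors are the absolute log2 fold change divided by the root of F. CPM are counts over the total count times the TMM factor. The fit was also run on simulated counts in which few genes changed, so scaling under changes as wide as those here was not tested.

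The 10 genes and the related lists were chosen with earlier results of these data known. Named genes were the 10, up to 3 per list by adjusted p, the 3 nearest profiles of the most significant riser and faller, and overlapping genes; close neighbours, CYP17A1, DHRS3, HSD17B13, RDH16, SULT2A1 and the cell markers named singly were picked after their values were seen. Alternatives were other scalings and filters, DESeq2 1.42.0, limma-voom (limma 3.58.1), the replicate number as a block, and each library left out.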

Additional observations from a re-analysis of the deposited data

How the results depend on the processing

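The calls of SRD5A1, SRD5A3, HSD17B6, HSD17B14 and STS kept their direction and their side of the threshold under every alternative: RLE, upper-quartile and library-total scaling, no filter, a filter of 1 CPM in 3 libraries, DESeq2, limma-voom, the block and each library left out. Over these, the log2 fold change ran from 0.90 to 0.99 for HSD17B6, 0.43 to 0.60 for HSD17B14, 0.35 to 0.42 for SRD5A3, 0.25 to 0.32 for SRD5A1 and -0.62 to -0.52 for STS. Besides these 5, HSD17B11 passed with library totals and SRD5A2 without the filter, so 5 genes were then higher. HSD17B10 changed sign without passing. Across the table, 3262 to 4675 genes were higher and 3200 to 4128 lower, with the fewest higher under DESeq2. Library totals moved the median log2 fold change of all genes from 0.003 to 0.049. Deviations from the group means correlated at 0.050, 0.037 and 0.019 between libraries sharing a replicate number. Between DHT and DHT+WBM libraries of unlike number, the correlations ran from -0.0864 to 0.0465. Such low values cannot decide whether the number pairs libraries, since a weak shared effect could give them. The replicate block left 4 of the genes higher and 1 lower, and called 4079 genes higher and 4030 lower in all. Counting depth limits SRD5A2 and HSD17B2, which rest on 12 and 66 counts.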
